A study of Homo sapiens with 2 samples.

Results

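VIM, TMSB10 and TPM3 are 3 genes of the cytoskeleton that each had 1 peak in a list of RNA regions recovered with an antibody against the splicing regulator SFRS8 from ARP1 cells, a human multiple myeloma line grown in culture. The members were chosen by gene symbol in the deposited peak list, with their read counts already known, so their counts, ratios and positions are given as a description. They account for 3 of the 238 genes and 3 of the 236 distinct peaks in the list. The study had 2 libraries, 1 of RNA recovered with the SFRS8 antibody (the IP library) and 1 of input RNA with no antibody (the control library), both from ARP1 cells for which the labels name no treatment or genetic change. The protocol text also mentions an antibody against the RNA modification m6A, and whether that step was used on these libraries is unclear. With 1 library per group there is no replicate check, and no p-value between conditions was computed.

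Vimentin, the product of VIM, assembles into intermediate filaments, the stress-bearing fibres of mesenchymal and blood-forming cells. TMSB10 encodes thymosin beta 10, a very small protein that holds actin monomers and so keeps them out of filaments. TPM3 encodes a tropomyosin, a coiled coil that lies along actin filaments and controls which motors and severing proteins reach them, and alternative splicing of tropomyosin genes yields muscle and non-muscle forms. In white blood cells these proteins bear on shape, stiffness and movement. SFRS8, also named SFSWAP, is a protein that regulates the splicing of pre-mRNA.

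All 3 genes had many more reads in the control library than in the IP library, and their read numbers differed widely. VIM had the most reads of the 3 in both libraries, TMSB10 had a ratio of IP to control reads close to that of VIM, and TPM3 had few IP reads for its control reads. The file names no library. The column without a prefix was taken for the IP library and the column prefixed CTL for the control, and with the opposite reading the order of all peaks by ratio runs backwards. The comparisons below among peaks with similar control reads would then rest on other peaks and were not computed that way. The total depth of each library is unknown, so a ratio has meaning only against other peaks of the list, and a value under 1 does not show depletion. Intervals below are exact 95% intervals and cover counting error only, since reads copied by PCR are not independent molecules.

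The VIM peak (ENSG00000026025) lay on the plus strand at chr10:17229636-17240090 in GRCh38. It held 237 reads in the IP library and 1930 in the control library. These counts placed it 8th from the top among the 236 peaks in IP reads and also 8th in control reads, so that 3.39% of peaks had at least as many by either count. The medians of all peaks were 21.5 IP reads and 145 control reads. The VIM ratio was 0.123 IP reads per control read (0.107 to 0.141). VIM alone held 1.96% of all IP reads in peaks and 2.21% of all control reads in peaks.

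The TMSB10 peak (ENSG00000034510) lay on the plus strand at chr2:84906361-84917070. It held 51 IP reads and 383 control reads, a ratio of 0.133 (0.0974 to 0.179). Its place by IP reads was 51st and by control reads 68th. The intervals of TMSB10 and VIM overlapped, so their ratios could not be told apart at this depth, although VIM had 4.65 times as many IP reads and 5.04 times as many control reads.

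The TPM3 peak (ENSG00000143549) lay on the minus strand at chr1:154156861-154157740. It held 14 IP reads and 406 control reads, a ratio of 0.0345 (0.0187 to 0.0585). Control reads were thus close to those of TMSB10, whereas IP reads were 3.64 times higher for TMSB10. The TPM3 interval overlapped neither of the others. No listed peak had fewer than 11 IP reads, so a peak with the control reads of TPM3 could not have been listed with a ratio under 0.0271. TPM3 lay just inside that edge, with 1.27 times the fewest IP reads, against 4.64 times for TMSB10 and 21.5 times for VIM.

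Against the whole list, all 3 ratios were below the median of 0.190 (0.142 to 0.228), and their intervals lay wholly below that median value. Such an interval was found for 40.3% of all 236 peaks, and for 82.3% of the 79 peaks with the most control reads (310 to 3971), a range that holds all 3 genes. The count of 3 of 3 is therefore near what peaks of this size showed. None of the 3 had a ratio above 1, as 16.1% of all peaks had. From the highest ratio down, TMSB10 was 137th, VIM 144th and TPM3 213th. As a multiple of the list's median, the ratio was 0.702 for TMSB10, 0.648 for VIM and 0.182 for TPM3. Set instead against the summed reads of all peaks outside chromosome 21, where ribosomal RNA genes held many IP reads, TMSB10 came to 1.26 and VIM to 1.17, so their side of the list turned with the scale, and TPM3 stayed low at 0.328.

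**Figure D1:**
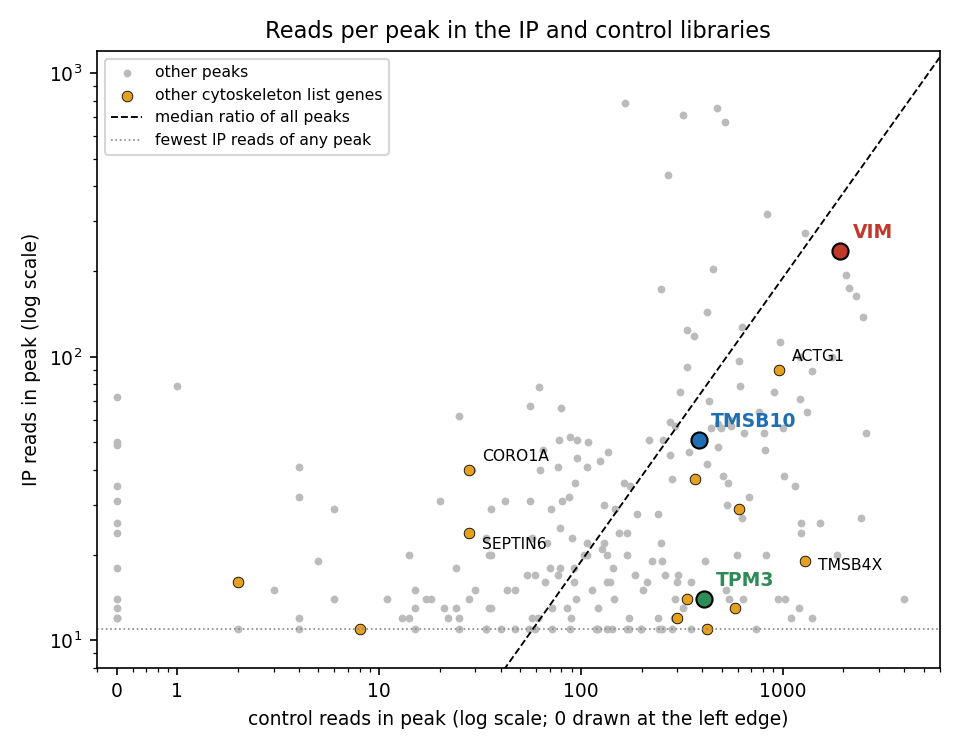
IP reads against control reads for all 236 peaks, both on log scales, with the median ratio as a dashed line and the fewest IP reads of any peak, 11, as a dotted line. VIM (237 and 1930 reads), TMSB10 (51 and 383) and TPM3 (14 and 406) lie below the dashed line, and TPM3 lies just above the dotted one.

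The ratio fell with the number of control reads across the list, so the members were also set beside peaks with similar control reads, a comparison chosen after their values were seen. Over the 236 peaks the rank correlation between ratio and control reads was -0.82, and the 2 quantities share the control count. Here VIM stood apart from its place in the whole list. Of the 25 other peaks with 965 to 3860 control reads, 24 had a lower ratio than VIM. The median ratio of those 25 peaks was 0.0375 (0.0169 to 0.0584), and VIM was 3.27 times that value. A ratio above at least 90% of such neighbours was found for 10.6% of the 216 peaks with 10 or more of them.

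RPL7A, a ribosomal protein gene, was the peak above VIM, with 273 IP and 1295 control reads and a ratio of 0.211 (0.184 to 0.240). Only 13.0% of that peak overlapped RPL7A. Next below VIM came the ribosomal protein gene RPL11 at 0.116 (0.0950 to 0.142), whose interval overlapped that of VIM. RPS6 followed at 0.0939 (0.0807 to 0.109), and then GAPDH, which encodes a glycolytic enzyme, at 0.0825 (0.0703 to 0.0963). The interval of GAPDH lay wholly below that of VIM, and the upper end of RPS6 reached just into it.

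For TMSB10, 50 of the 70 other peaks within 2-fold of its control reads had a lower ratio. Their median was 0.0797 (0.0556 to 0.109), and TMSB10 was 1.67 times that value. For TPM3, 8 of 69 such peaks had a lower ratio, with a median of 0.0839 (0.0564 to 0.116), so TPM3 came to 0.411 of the median. The 3 genes thus took 3 different places among peaks of like size, with VIM near the top, TMSB10 above the middle and TPM3 near the bottom. The low place of TPM3 was partly set by the list. No listed peak had fewer than 11 IP reads, so its neighbours with the fewest control reads could not have had a lower ratio.

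**Figure D2:**
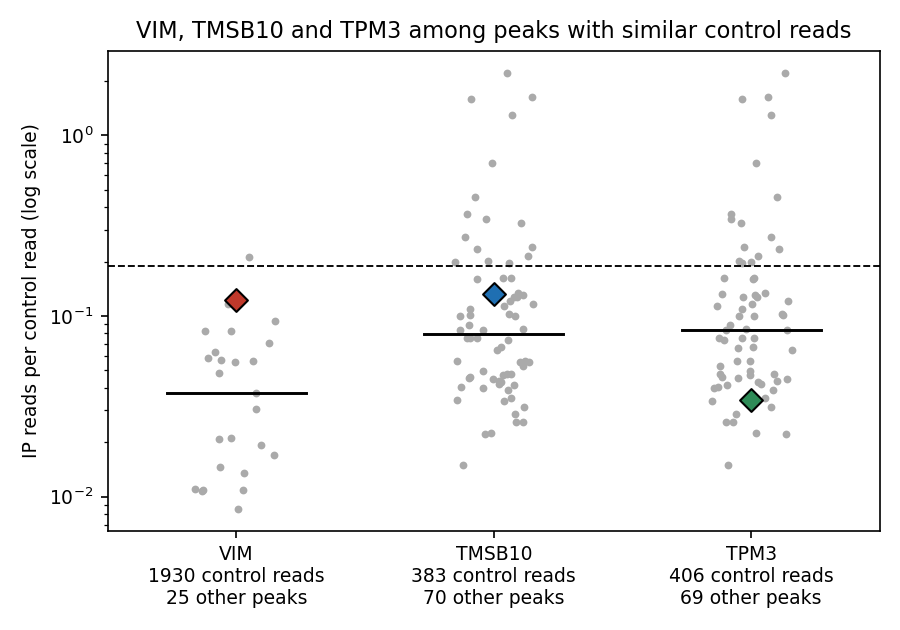
Ratio of IP to control reads, on a log scale, for VIM, TMSB10 and TPM3 (diamonds) and for the other peaks within 2-fold of each gene's control reads (grey points, with their median as a bar). The dashed line is the median of all peaks, 0.190, and VIM lies above 24 of 25 neighbours, TMSB10 above 50 of 70 and TPM3 above 8 of 69.

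Per kb of peak, the order in the control library was another one. These are levels of the peak regions and not of the genes, since the peaks differ in how much of them lies in the gene. TPM3 had 461 control reads per kb (418 to 508), VIM 185 (176 to 193) and TMSB10 35.8 (32.3 to 39.5). None of these intervals overlapped. The median of all peaks was 62.8 control reads per kb, so TPM3 and VIM lay above it and TMSB10 below it, and TPM3 was 33rd of 236. In the IP library VIM had 22.7 reads per kb (19.9 to 25.7) and TPM3 15.9 (8.70 to 26.7), with overlapping intervals. TMSB10 had 4.76 IP reads per kb (3.55 to 6.26), below both of these and below the list's median of 16.1.

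The low value per kb of TMSB10 goes with the shape of its peak, which lay almost wholly outside the gene. TMSB10 spans 1051 bases in the deposited list, from 84905625 to 84906675. The peak was 10710 bases wide, began 736 bases into the gene and covered its last 315 bases, which is 2.94% of the peak and 30.0% of the gene. It then ran 10395 bases past the 3′ end. Among peaks listed with a protein-coding gene, 10.0% had more than 50% of their bases outside it. The counts are given per peak, so how many of the 51 IP and 383 control reads fell in TMSB10 is unknown. If all control reads lay in the 315 bases, the control level would be 1216 reads per kb. That is an upper bound per base of gene span and lies above the 461 of TPM3. The order of the 3 genes by control level is therefore not settled.

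The same peak was also listed with a processed pseudogene (ENSG00000213399), which by position is RPS2P17, a copy of the ribosomal protein gene RPS2. The pseudogene lay wholly in the peak, over 793 bases from 84915868 to 84916660. Between the end of TMSB10 and the start of the pseudogene lay 9192 bases, or 85.8% of the peak, with neither gene. By RefSeq gene spans on either strand, 661 bases of the peak also overlapped the long non-coding RNA gene LOC105374836. Reads from a processed pseudogene and its parent gene are hard to tell apart, so the TMSB10 ratio is that of a region and not of the TMSB10 transcript alone.

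The VIM peak covered most of its gene. It was 10455 bases wide, began 1377 bases after the 5′ end and held 7958 bases of VIM, which is 76.1% of the peak and 85.2% of the gene. It ran 2497 bases past the 3′ end at 17237593. Its centre lay 6604 bases from the 5′ end, at 70.7% of the gene's length. On either strand, the first 350 bases of the peak overlapped VIM-AS1, an antisense gene whose span ends inside VIM, and whether the reads were counted by strand is not stated. With the peak's VIM bases alone as the length, the control level would be at most 243 reads per kb of gene span. Exon positions were not used, so a level per base of mRNA could be higher.

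The TPM3 peak was short and lay wholly inside its gene. It was 880 bases wide, 2.24% of a gene of 39345 bases, and ended 1557 bases short of the 3′ end at 154155304. Its centre was at 94.9% of the gene's length from the 5′ end. RefSeq names 9 pseudogenes for TPM3 and 2 for TMSB10 elsewhere in the genome, so reads shared with such copies make both counts uncertain. Whether the TPM3 peak lies in an exon, an intron or an untranslated region was not determined, since exon positions were not used here. None of the 3 peaks reached the promoter window of its gene, which ends 50 bases past the start in RefSeq. The gaps were 656 bases for TMSB10, 1346 bases for VIM and at least 20415 bases for the start sites of TPM3.

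Peak edges in the list fell on a fixed step for each chromosome and strand. The common step was 220 bases for the 13 minus-strand peaks of chromosome 1, 315 bases for the 13 plus-strand peaks of chromosome 2 and 205 bases for the 3 plus-strand peaks of chromosome 10. The TPM3 peak was 4 steps wide, the TMSB10 peak 34 and the VIM peak 51. An edge is therefore known only to about 1 step, and the 315 bases of the TMSB10 peak in its gene are a single step.

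**Figure D3:**
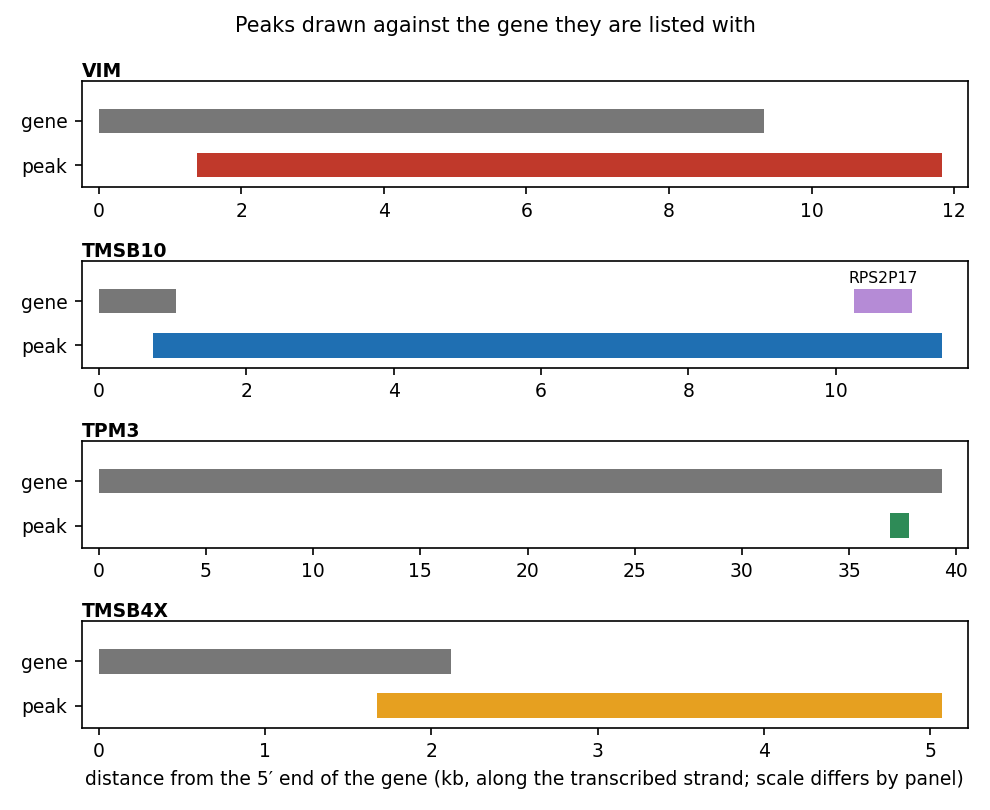
Peaks of VIM, TMSB10, TPM3 and, for comparison, TMSB4X drawn in kb from the 5′ end of the gene along the transcribed strand, with the gene span in grey above and RPS2P17 in purple. The VIM peak covers most of the gene, the TMSB10 and TMSB4X peaks begin near the 3′ end and run past it, and the TPM3 peak is a short stretch near the 3′ end.

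The authors' deposited table ordered the 3 genes differently from the ratio. The p-value in the authors' deposited table was 8.01e-177 for TPM3, 4.7e-78 for VIM and 1.04e-43 for TMSB10. A smaller p-value in the authors' deposited table was held by 77 peaks for TPM3, 107 for VIM and 125 for TMSB10, with 62 peaks at exactly 0. The score in the authors' deposited table was 83.5 for TPM3, 79.3 for VIM and 61.5 for TMSB10. TPM3, the lowest of the 3 by ratio, was thus the first of them by the authors' p-value and score, whose construction the sources used here do not give.

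Among other genes of the cytoskeleton, those for actin, actin monomer binding, the ARP2/3 complex and tubulin had low ratios like the 3 members, while a coronin, a septin and an actin-associated adaptor had high ones. Over 8 lists of 146 genes, 14 genes had a peak, and 132 had none in the list. Peaks were listed for 238 genes in all, and the share of all human genes with a peak was not computed. Counts of cytoskeleton genes with or without a peak, here and below, are therefore not read as a result. The interval of the ratio lay wholly under the list's median for 11 of these 14 genes, beside 40.3% of all peaks. These 11 genes had 300 or more control reads, and the other 3 had 28 or fewer in each peak. Among the 79 peaks with 310 or more the share was 82.3%, and TUBA1B, with 300, lay just under that range. Among the 79 peaks with the fewest control reads (0 to 77) the share was 0%. It could not have been higher there, since no listed peak had fewer than 11 IP reads. The count thus goes with control reads and is not read as a result about these genes. With the peak of highest ratio taken for each gene, the median of the 14 genes was 0.0709. Without VIM, TMSB10 and TPM3, the interval lay wholly under the list's median for 8 of the other 11 genes, whose median ratio was 0.0479. Genes with no peak have no measured level in the list, so none of them is shown to be left out of the IP.

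Of 18 genes for intermediate filaments and their linkers, VIM was the one with a peak, and of 4 tropomyosin genes, TPM3 was. No nuclear lamin or keratin gene of the list had a peak, nor had TPM1, TPM2 or TPM4. Of 14 genes for thymosins and other proteins that bind actin monomers, 3 had a peak, TMSB10, TMSB4X and PFN1. None of 15 myosin genes had one.

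TMSB4X, the close relative of TMSB10 and the main actin-sequestering thymosin of blood cells, had 19 reads in the IP library and 1296 in the control. This gave a ratio of 0.0147 (0.00880 to 0.0230), and that of TMSB10 was 9.08 times as high, with no overlap of the intervals. TMSB10 had fewer control reads, 383. Against the median of other peaks within 2-fold of each gene's control reads, TMSB4X came to 0.264 and TMSB10 to 1.67. The control library held 381 reads per kb in the TMSB4X peak, 10.7 times the level in the TMSB10 peak. In control reads without regard to width, the TMSB4X peak had 3.38 times as many. These are levels of peak regions, and 2.94% of the TMSB10 peak lay in its gene. The TMSB4X peak resembled that of TMSB10 in position, with 13.1% of its 3400 bases in the gene and 2953 bases past the 3′ end. PFN1, the gene of profilin, which delivers actin monomers to growing filaments, had 14 IP and 334 control reads and a ratio of 0.0419 (0.0227 to 0.0713). PFN1 had the same number of IP reads as TPM3, and their intervals overlapped.

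ACTG1, the gene of a cytoplasmic actin, had 90 IP and 958 control reads and a ratio of 0.0939 (0.0748 to 0.117), which overlapped the intervals of VIM and TMSB10 and lay above that of TPM3. The genes of the ARP2/3 complex, which starts branched actin filaments, were lower. ARPC2 had 29 IP and 605 control reads (0.0479, 0.0318 to 0.0696), ACTR3 11 and 423 (0.0260, 0.0129 to 0.0470) and ACTR2 13 and 581 (0.0224, 0.0118 to 0.0386). Each of these 3 intervals overlapped that of TPM3 and none reached that of VIM or TMSB10. ACTR3 held the fewest IP reads of any listed peak, 11. A peak with its control reads could therefore not have been listed with a lower ratio, and ACTR2 lay close to that edge. Their peaks were 17325 to 25830 bases wide, and their control levels were 21.7 to 34.9 reads per kb, near that of the TMSB10 peak. These are levels of peak regions. Of each of the 3 peaks, 79.9% to 100% lay in its gene, against 2.94% of the TMSB10 peak.

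Of 24 genes for tubulins and proteins of microtubules, 2 had a peak. STMN1 encodes stathmin, which destabilises microtubules, and had 37 IP and 367 control reads and a ratio of 0.101 (0.0699 to 0.142). TUBA1B, an alpha-tubulin gene, had 12 and 300 reads and a ratio of 0.0400 (0.0204 to 0.0709). Its IP reads were close to the fewest of any listed peak, 11. STMN1 thus overlapped VIM and TMSB10 in its interval, and TUBA1B overlapped TPM3.

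High ratios were found where control reads were few. CORO1A, which encodes the coronin of blood cells, a binder of actin filaments, had 40 IP and 28 control reads and a ratio of 1.43 (0.860 to 2.40). SEPTIN6, a gene for a filament-forming GTPase whose symbol is a calendar date in the list, had 24 and 28 reads (0.857, 0.476 to 1.53). AFAP1L2, the gene of an adaptor protein related to an actin filament-associated protein, had 2 peaks, with 16 IP and 2 control reads (8, 1.88 to 71.7) and with 11 and 8 (1.38, 0.504 to 3.94). Intervals of CORO1A, SEPTIN6 and both AFAP1L2 peaks lay above the median of all peaks, as they did for 36.4% of peaks. No listed peak had fewer than 11 IP reads. A peak with 28 or fewer control reads could therefore not have been listed with a ratio under that median, and these intervals are not read as a result. Beside the other 36 peaks within 2-fold of its control reads, CORO1A had a higher ratio than 33 and SEPTIN6 than 27. The AFAP1L2 peaks were higher than 4 of 8 and 6 of 14 such peaks.

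**Figure D4:**
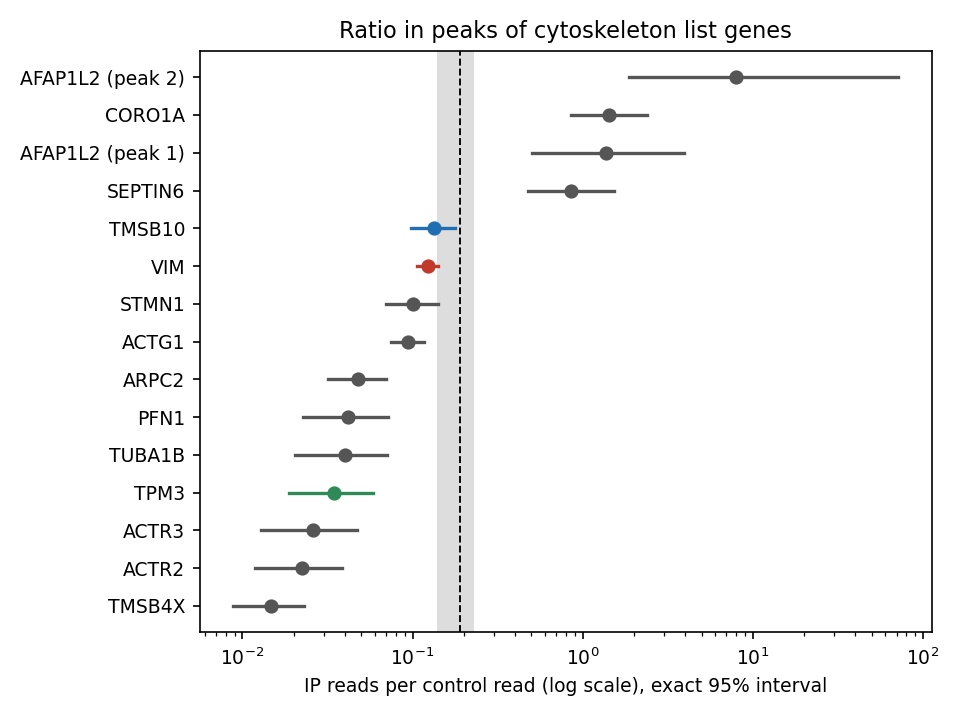
Ratio of IP to control reads, on a log scale, in the 15 peaks of cytoskeleton list genes, with exact 95% intervals, ordered by ratio. The dashed line and grey band give the median of all peaks and its interval, 0.190 (0.142 to 0.228), and the points of TMSB10, VIM and TPM3 (coloured) all lie to its left.

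**Figure D5:**
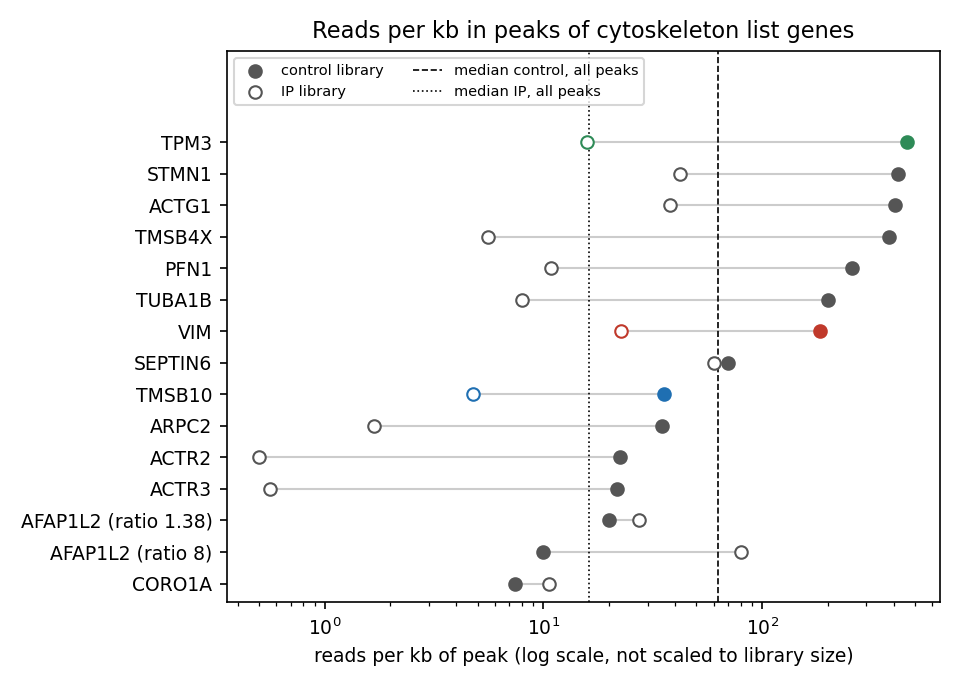
Reads per kb of peak, on a log scale and not scaled to library size, in the control library (filled) and the IP library (open) for the same 15 peaks, ordered by control level. TPM3 has the highest control level of these peaks (461), VIM lies above the median of all peaks (62.8) and TMSB10 below it.

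Among peaks listed with other protein-coding genes, those nearest to each member by ratio came from genes of varied kinds. For VIM they were LRRFIP1 (0.122), FARP1 (0.125) and MORF4L2 (0.125). For TMSB10 they were the ribosomal protein gene RPL6 (0.133), TXNDC11 (0.133) and the translation initiation factor gene EIF3C (0.135). For TPM3 they were SSR2, of the protein translocation machinery (0.0353), the elongation factor gene EEF1G (0.0337) and PPIA, the gene of cyclophilin A (0.0375). Each value is that of the gene's nearest peak. Other peaks had ratios of 0.0486 for RPL6, 0.2 and 0.733 for EIF3C, and 0.109 and 0.160 for EEF1G. Among the same peaks, the nearest by control reads per kb were RPL15 (187), H2BC18 (190) and HDGF (191) for VIM, LMAN2 (35.6), RRM2 (36.1) and MZB1 (36.4) for TMSB10, and ZBTB38 (450), MEF2C (476) and CROCC (488) for TPM3. Peaks alike in control reads per kb differed widely in ratio. They also differed in control reads, with which the ratio fell across the list. Beside VIM, RPL15 had a ratio of 0.0212 with 1227 control reads and HDGF one of 0.201 with 631. Beside TMSB10, RRM2 had 0.0149 with 739 control reads and LMAN2 0.554 with 56. RRM2 held the fewest IP reads of any listed peak, 11.

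Compared with ribosomal protein genes, whose mRNAs are abundant, VIM and TMSB10 had higher ratios than most and TPM3 had one below the middle. Of 78 ribosomal protein genes 22 had a peak, with ratios of 0.00856 to 0.380 and a median of 0.0614, and 20 of these 22 had an interval wholly under the median of all peaks. They had 241 or more control reads, and the same was found for 82.3% of the 79 peaks with 310 or more. The ratio was lower than that of TMSB10 for 19 of the 22, lower than that of VIM for 18 and lower than that of TPM3 for 9. Ratios in peaks of the plasma cell genes ITGB7, MZB1 and JCHAIN spanned a far wider range than those of VIM, TMSB10 and TPM3. So did their control reads, 36 to 3971 against 383 to 1930, and the ratio fell with control reads across the list. JCHAIN had a ratio of 0.00353 and MZB1 one of 0.256. The 3 peaks of ITGB7 had ratios of 0.556, 0.699 and 1.20, the middle one in the peak with the most reads (174 IP and 249 control). The intervals of VIM and TMSB10 lay between that of JCHAIN and those of the 3 ITGB7 peaks, and the interval of MZB1 (0.154 to 0.408) overlapped that of TMSB10 and not that of VIM. No difference between these groups was tested.

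The labelled cell type was checked against marker genes, as far as a peak list allows. Of 11 plasma cell markers, 4 had a peak (JCHAIN, MZB1, XBP1 and ITGB7), with 20.0 to 499 control reads per kb over all their peaks, and 7 had none, among them SDC1. VIM is also a marker of stromal cells. None of 11 stromal markers had a peak, nor had any of 6 myeloid, 5 T cell or 4 erythroid markers. A gene without a peak in the list may still be expressed. Peaks were listed for 238 genes in all, and the share of all human genes with a peak was not computed. The absence of these markers therefore says little about cell type.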

How the data were processed

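The members and gene lists were chosen with earlier results of these data known. One peak list of 279 rows was used, with 1 row per peak and overlapping gene, reduced to 236 distinct peaks. The build was GRCh38, and the tools were HOMER and FastQC 0.11.5, per the submitters' processing notes. Not given in the sources used here are the aligner, the peak caller and the treatment of reads with several matches. The deposited counts are whole reads per peak and library, without normalization. Another 2 value columns were left unused, and reads per kb were computed from the counts and the peak width. The deposited score and the deposited p-values are the authors' own and were used only to describe and rank peaks.

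Ratios of IP to control reads carry exact Clopper-Pearson 95% intervals, levels per kb exact Poisson intervals, and medians intervals from binomial ranks. Where a peak had 0 control reads, 3 were used. Symbols missing from the list were taken from RefSeq (GRCh38.p14) at a reciprocal overlap of at least 80%. The 3 members matched RefSeq by symbol. The genes named are the members, every cytoskeleton list gene with a peak, other genes under a member's peak, and the 3 protein-coding genes nearest to each member in log2 ratio and in log2 control reads per kb. RPL7A, RPL11, RPS6 and GAPDH, and the genes of the compared groups and markers, were named besides. Python 3.11.15, pandas 2.3.3 and scipy 1.17.1 were used, and the interval functions were tested on simulated data.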

Additional observations from a re-analysis of the deposited data

How the results depend on the processing

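Each value was computed again under other settings. Besides those chosen after seeing the data, this gave 48 further values, of which 35 were classed as the same and 13 as moved. Ranks, overlaps and gene counts among them have no interval of read-counting error. None of them is a test. With 1 read added to both libraries the 3 ratios moved by less than their intervals. The share of other peaks with a lower ratio was 39.1% for VIM, 42.1% for TMSB10 and 9.79% for TPM3. It was classed as the same without chromosome 21, among protein-coding peaks and among peaks with an authors' p-value of at most 1e-10. Ordered by the authors' score, the share was 50.2% for VIM and 53.6% for TPM3. Ordered by IP reads per kb, it was 65.5% for VIM, 19.6% for TMSB10 and 49.4% for TPM3. Among peaks within 2-fold of the control reads it was 96.0% for VIM and 71.4% for TMSB10, and within 1.5-fold 92.9% and 64.4%, both chosen after seeing the data. TPM3 stayed low there, at 11.6% and 13.0%, but its neighbours with the fewest control reads could not have been listed with a lower ratio. Divided by the summed ratio of all peaks, the level was 0.888 for VIM and 0.963 for TMSB10, and divided by that outside chromosome 21, 1.17, 1.26 and, for TPM3, 0.328. With bases inside the gene only, control reads per kb were 243 for VIM and 1216 for TMSB10. Cytoskeleton list genes with a peak were 12 in place of 14 with the peak's centre, or at least 50% of its bases, inside the gene, or with the stricter p-value. Counted as 1 row per peak and gene, 19.0% in place of 10.6% had more than 50% of the peak outside the listed gene. The TMSB10 peak is centred outside its gene, so the order among peaks centred inside the gene gave no value for it. No paired analysis was possible because each group had 1 library. Depth limits TPM3 most, which rests on 14 IP reads.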
